A study of Mus musculus with 7 samples.

Results

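Keratin and vimentin transcripts were followed across the cell classes of mouse mammary tumors. The set comprised 10 genes: the luminal keratins Krt8, Krt18, Krt19, Krt7 and Krt23, the basal keratins Krt5, Krt14, Krt15 and Krt17, and Vim, which encodes vimentin. They were taken by symbol, and all 10 were found among the 33710 genes of the matrices and passed the filter on low counts, which 6961 genes passed. Spontaneous tumors of 7 mice were digested and their single cells were profiled by Drop-seq, which captures one cell per droplet and counts each transcript once by its UMI (unique molecular identifier). All 7 mice carried the MMTV-PyMT transgene, in which the MMTV promoter drives the polyoma middle T oncogene in mammary epithelium, and HK2 f/f alleles, in which exons of hexokinase 2 are flanked by loxP sites. They were labelled wild type and are the controls of a study of systemic HK2 deletion; according to its methods they received tamoxifen but HK2 was not deleted. They were labelled as taken 3 months after the tumor was palpable. There was 1 matrix per mouse and no second condition, so the comparisons are between cell classes of the same tumors. Titles put replicates 1, 2, 3 and 4 in a series named CB and replicates 5, 7 and 8 in a series named WT; what these letters stand for is not given in the sources used here.

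Keratins build the intermediate filaments of epithelial cells, and each filament needs a type I and a type II partner. In the mammary gland, KRT8 and KRT18 pair in the luminal cells that line the ducts and make milk, and KRT5 and KRT14 pair in the myoepithelial cells that surround them and contract. Vimentin, a type III filament protein, is typical of fibroblasts, endothelial cells and leukocytes, and a gain of vimentin with a loss of luminal keratin is commonly read as a sign of epithelial-mesenchymal transition (EMT).

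After barcodes with fewer than 200 or more than 6000 detected genes were left out, 15047 of 37000 barcodes were kept as cells. The tumors gave 1133 to 4780 cells and 962677 to 4471473 UMIs each, and the median cell held 527 to 694 UMIs. Any pair of libraries shared at most 1 barcode. Cells were clustered without keratin, vimentin or other filament genes, and clusters were named from marker genes. The tumor class held 4906 cells in 3 clusters, the hormone-sensing class 1707 cells, of which replicate 4 gave 59.1%, and the myoepithelial class 276 cells, with at least 10 cells in 5 of 7 mice. The fibroblast class held 1027 cells, the endothelial class 144 cells with at least 10 in 3 mice, the macrophage class 2628 cells and the T/NK class 2213 cells. A cluster of 1229 cells led by the acute-phase genes Saa1 and Saa2 had high PYMT and scored best for the tumor markers. The naming rule left it unnamed because another marker list had more of the leading genes. A hemoglobin-high cluster of 446 cells was also kept apart. With each cell classed from its own markers alone, 1221 cells of the acute-phase cluster and 326 of the hemoglobin-high cluster were tumor. The tumor class thus leaves out many cells with tumor markers. Levels are given as CPM, counts scaled to 1000000 UMIs of the sum. PYMT, the transgene transcript, was at 2103 ± 1163 CPM (SD, n = 7 mice) in the tumor class. There it split by title series, with 817 to 1536 CPM in CB and 3104 to 3613 CPM in WT, a difference that was not tested. PYMT was at 395 CPM in the hormone-sensing class and at 939 CPM in barcodes with fewer than 200 genes. Whether those low barcodes hold free RNA, debris or small cells was not tested, and background is used here only for a level at or below theirs in the same mouse.

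The classes were not pure. Mixed cells held at least 2 marker UMIs in each of 2 or more compartments, epithelial, immune or stromal. They made up 5.89% of the tumor class, 30.3% of the hormone-sensing class, 42.4% of the myoepithelial class and 38.0% of the fibroblast class. Tumor and hormone-sensing markers both counted as epithelial, and myoepithelial markers counted in no compartment. Tumor RNA alone in a hormone-sensing or myoepithelial cell was thus not seen by this measure. Summed tumor markers stood at 14138 to 43490 CPM in the myoepithelial class, where replicate 7, with 12 cells, was highest, against 33386 to 59726 CPM in the tumor class itself, and myoepithelial markers stood at 3357 to 13335 CPM there, with replicate 7 lowest. When each cell was classed from its own markers alone, 96 of the 276 cells of the myoepithelial class were myoepithelial, 98 tumor and 64 unnamed. Of the 1707 cells of the hormone-sensing class, 739 were hormone-sensing, 444 tumor and 497 unnamed. Summed tumor markers stood at 2913 to 12066 CPM in that class. The T/NK class of replicate 3, with 40 cells, carried tumor markers at 17483 CPM, the highest of the 7 mice, whose lowest value was 1728 CPM. The part of these cells in the results was not tested, but comparisons without the mixed cells and without each mouse were made.

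Krt8 and Krt18, the partners of the simple epithelial filament, lie on chromosome 15 of mm10 at chr15:101996698-102004482 on the minus strand and chr15:102028180-102032027 on the plus strand. Their start sites face away from each other, with 23697 bases between the genes. Of the 10 genes, 7 had a promoter entry of 300 bases in RefSeq (GRCm38.p6), which spans 250 bases before to 50 bases after the start site. The promoters of the luminal pair, of Krt5 and of Vim are shown because these genes mark the luminal, basal and mesenchymal ends of the comparisons; capitals mark CACCTG on either strand, an E-box that SNAIL-type repressors are known to bind, and the other letters are lower case.
Krt8: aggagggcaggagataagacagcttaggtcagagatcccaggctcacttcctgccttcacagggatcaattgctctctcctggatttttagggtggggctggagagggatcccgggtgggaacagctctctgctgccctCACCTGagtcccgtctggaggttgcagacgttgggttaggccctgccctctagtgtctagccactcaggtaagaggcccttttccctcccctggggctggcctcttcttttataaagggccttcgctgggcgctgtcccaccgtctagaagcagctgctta
Krt18: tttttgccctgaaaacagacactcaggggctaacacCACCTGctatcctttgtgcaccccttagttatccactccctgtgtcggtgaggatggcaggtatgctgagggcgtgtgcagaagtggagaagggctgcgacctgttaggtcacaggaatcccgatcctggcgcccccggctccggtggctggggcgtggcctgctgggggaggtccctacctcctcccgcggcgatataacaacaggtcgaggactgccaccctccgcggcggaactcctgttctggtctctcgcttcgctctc
Krt5: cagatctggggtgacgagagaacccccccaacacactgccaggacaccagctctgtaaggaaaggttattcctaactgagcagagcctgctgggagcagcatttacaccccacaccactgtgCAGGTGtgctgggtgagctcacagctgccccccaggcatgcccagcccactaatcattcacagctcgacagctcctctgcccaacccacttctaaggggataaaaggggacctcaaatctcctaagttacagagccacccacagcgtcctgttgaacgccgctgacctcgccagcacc
Vim: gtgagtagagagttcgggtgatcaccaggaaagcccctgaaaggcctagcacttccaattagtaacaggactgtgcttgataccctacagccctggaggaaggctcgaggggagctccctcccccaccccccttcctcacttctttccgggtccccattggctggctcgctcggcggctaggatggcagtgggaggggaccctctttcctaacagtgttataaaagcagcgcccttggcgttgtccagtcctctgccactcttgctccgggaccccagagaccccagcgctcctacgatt
The Krt8 window is chr15:102004293-102004592 (minus strand), the Krt18 window chr15:102027966-102028265 (plus strand), the Krt5 window chr15:101712856-101713155 (minus strand) and the Vim window chr2:13574061-13574360 (plus strand). CACCTG on either strand occurred once in each of the Krt8, Krt18, Krt7, Krt23 and Krt5 windows and in neither the Krt14 nor the Vim window. The Krt14, Vim and Krt7 windows lie inside the annotated spans of their genes. The same letters occurred in 20.2% of 32851 promoters, and a match is a description of the sequence only.

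Among the 7 classes the hormone-sensing class had the highest Krt8 and Krt18, and the tumor class came next. The acute-phase cluster, which was kept apart, held means of 1937 CPM of Krt8 and 2702 CPM of Krt18, with ranges that overlapped those of the tumor class. Krt8 was at 2510, 3818 and 6717 CPM (lowest, median and highest of 7 mice) in hormone-sensing cells and at 1374, 1892 and 1982 CPM in tumor cells. The ranges did not overlap, and the level was higher in hormone-sensing cells in 7 of 7 mice (log2 fold change 1.16 ± 0.381 SE, edgeR adjusted p = 0.0193). Krt18 was at 4257, 5405 and 6263 CPM in hormone-sensing cells against 1489, 2454 and 3567 CPM in tumor cells, again without overlap (log2 fold change 1.10 ± 0.403, edgeR adjusted p = 0.0369). Both keratins were above the low barcodes of the same mouse in 7 of 7 mice in either class. Within the title series the fold changes kept their sign: 1.32 (edgeR adjusted p = 0.12) in CB and 0.97 (edgeR adjusted p = 0.0276) in WT for Krt8, and 1.19 (edgeR adjusted p = 0.18) and 0.95 (edgeR adjusted p = 0.0381) for Krt18. The Krt8 call was lost without replicate 1 (1.08, edgeR adjusted p = 0.0704), and the Krt18 call without replicate 1, 2, 4 or 5 (1.02 to 1.11, edgeR adjusted p from 0.0632 to 0.11). Over all 21 other settings Krt8 was called in 17 and Krt18 in 13, with the same sign in each. Pooled over mice, 0.762 Krt8 UMIs were counted per Krt18 UMI in the tumor class and 0.717 in the hormone-sensing class. Replicate 4 gave 8085 of the 15079 Krt18 UMIs of the hormone-sensing class. The balance varied by mouse. In replicate 1 Krt8 exceeded Krt18 in both classes (2772 against 2082 UMIs in tumor cells, 801 against 568 in hormone-sensing cells). In every other mouse Krt18 exceeded Krt8 in both classes.

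**Figure D1:**
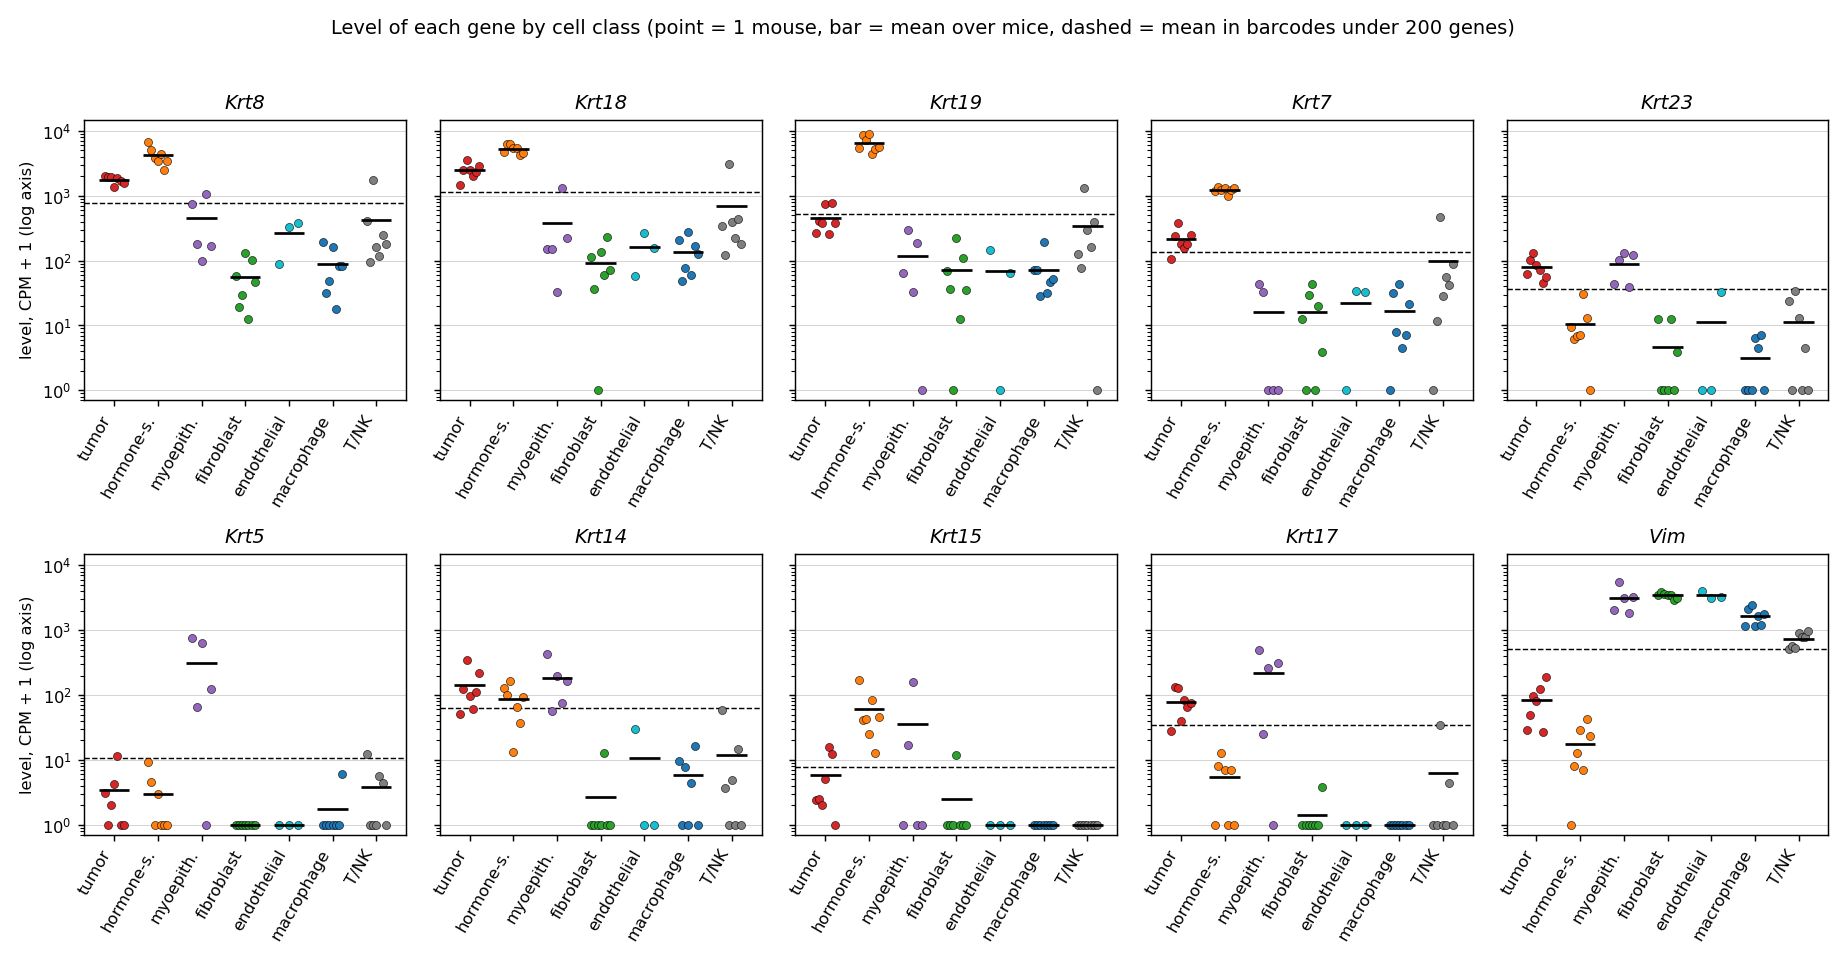
Level of each of the 10 genes as CPM + 1 (log axis) in each of 7 cell classes. Each point is 1 mouse, the bar is the mean over mice and the dashed line is the mean in barcodes with fewer than 200 genes; a mouse with no UMI lies at 1. Krt8, Krt18, Krt19 and Krt7 have their highest mean in the hormone-sensing class and Krt5 in the myoepithelial class, and Vim is high in all classes except tumor and hormone-sensing.

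In the myoepithelial class Krt8 and Krt18 were far below the tumor class. Krt8 was at 752, 182, 96.4, 1056 and 164 CPM in replicates 1, 4, 5, 7 and 8, below the tumor class in 5 of 5 mice and without overlap (log2 fold change -2.41 ± 0.537, edgeR adjusted p = 0.000912). Krt18 was at 150, 151, 32.1, 1320 and 226 CPM in the same mice, where replicate 7 stood apart from the rest (log2 fold change -3.21 ± 0.594, edgeR adjusted p = 9.33e-05). In every mouse but replicate 7, both keratins were below the low barcodes of the same mouse and so at background as defined above. Replicate 7 was also the mouse with the most tumor marker RNA in this class. Hormone-sensing cells exceeded myoepithelial cells by a log2 fold change of 3.57 for Krt8 and 4.31 for Krt18. Fibroblasts held 55.9 ± 43.9 CPM of Krt8 (SD, n = 7) and macrophages 87.8 ± 66.3 CPM, in all 14 sums below the low barcodes of the same mouse and so at background as defined above. The T/NK class was at 95.4, 178 and 1728 CPM (lowest, median and highest), where the highest was replicate 3.

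Krt19, the smallest keratin, which lacks a tail domain, and Krt7, a type II keratin of simple epithelia, were both far higher in hormone-sensing than in tumor cells. Krt19 (chr11:100140810-100148665, minus strand) was at 4436, 5746 and 8837 CPM in hormone-sensing cells and at 261, 378 and 775 CPM in tumor cells (lowest, median and highest of 7 mice). The lowest hormone-sensing value was above the highest tumor value (log2 fold change 3.88 ± 0.364, edgeR adjusted p = 2.25e-10), and the fold change was 4.11 in the CB series and 3.56 in the WT series. Tumor cells exceeded the low barcodes of the same mouse in 2 of 7 mice, and in the other mice they were at background as defined above. Their mean of 458 CPM of Krt19 stood against 69.6 CPM in fibroblasts and 69.7 CPM in macrophages, and 24.3% of tumor cells held a Krt19 UMI against 3.99% of fibroblasts and 5.25% of macrophages, at median depths of 639, 700 and 544 UMIs. Krt7 (chr15:101411043-101430313, plus strand) was at 1000, 1243 and 1363 CPM in hormone-sensing cells and at 104, 182 and 386 CPM in tumor cells. These ranges did not overlap either (log2 fold change 2.59 ± 0.299, edgeR adjusted p = 2e-08), and the value was 2.59 in CB and 2.56 in WT. For Krt7 the tumor class was above the low barcodes in 6 of 7 mice. Myoepithelial cells were lower than tumor cells in both genes, with Krt19 at 64.5, 293, 32.1, 189 and 0 CPM in replicates 1, 4, 5, 7 and 8 (log2 fold change -2.12 ± 0.558, edgeR adjusted p = 0.00462) and Krt7 at 14.9 ± 20.8 CPM (SD, n = 5), listed at 0 in 3 of 5 mice (log2 fold change -3.30 ± 0.792, edgeR adjusted p = 0.00194). In the myoepithelial class both Krt19 and Krt7 were below the low barcodes in every mouse, and so at background as defined above. Exons of Krt7, Krt8 and Krt5 overlap genes on the other strand (Gm671, Gm36026 and Gm44323), and whether the authors' counting used strand is not given in the sources used here.

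Krt23, a type I keratin, followed another order than the other luminal members. It was at 44.1, 71.5 and 129 CPM in tumor cells (lowest, median and highest of 7 mice) and at 0, 6.02 and 29.6 CPM in hormone-sensing cells. Every tumor value was above every hormone-sensing value (log2 fold change -3.32 ± 0.353 for hormone-sensing against tumor, edgeR adjusted p = 4e-13), although the fold change was smaller in WT (-1.73, edgeR adjusted p = 0.0715) than in CB (-3.98), a difference between series that was not tested. Myoepithelial cells held 43.0, 103, 129, 37.7 and 123 CPM in replicates 1, 4, 5, 7 and 8. This range overlapped that of the tumor cells (log2 fold change 0.19, edgeR adjusted p = 0.768), and the level was above the low barcodes in 7 of 7 mice for tumor cells and in 5 of 5 for myoepithelial cells. Krt23 (chr11:99477974-99493137, minus strand) was thus higher in the tumor and myoepithelial sums than in hormone-sensing cells, where 1 of 7 mice exceeded its low barcodes. The myoepithelial level rests on 26 UMIs in 19 cells. This class also carried tumor marker RNA, and the part of tumor RNA in its Krt23 was not tested. The acute-phase cluster, in which PYMT was also high, held 25.0 ± 19.8 CPM of Krt23 (SD, n = 7).

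Krt5, the basal type II keratin (chr15:101707070-101712898, minus strand), was found at more than trace levels only in the myoepithelial class among the classes measured. It was at 752, 63.4, 643, 0 and 123 CPM in replicates 1, 4, 5, 7 and 8, so 4 of 5 mice were high and replicate 7 held none. Tumor cells were at 0, 1.02 and 10.6 CPM (lowest, median and highest of 7 mice). The log2 fold change was 6.01 ± 0.523 (edgeR adjusted p = 3.51e-16), with 6.52 in CB and 5.30 in WT. No Krt5 UMI was counted in fibroblasts or endothelial cells; against a floor of 3 UMIs over each class, myoepithelial Krt5 was at least 106-fold higher than in fibroblasts and at least 10.2-fold higher than in endothelial cells. Without replicate 1 these limits fell to 63.5-fold and 6.70-fold, and without replicate 5 the limit against endothelial cells was 5.19-fold. Hormone-sensing cells held 1.99 ± 3.14 CPM and tumor cells 2.44 ± 3.81 CPM (SD, n = 7), which did not differ by the test (log2 fold change 0.26 ± 0.758, edgeR adjusted p = 0.839) and rest on 6 and 16 UMIs.

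Krt14 (chr11:100203162-100207548, minus strand), the type I partner of Krt5, did not follow it. Tumor cells held Krt14 at 49.3, 112 and 342 CPM (lowest, median and highest of 7 mice), above the low barcodes in 6 of 7 mice, although Krt5 was at trace level in the same cells. Myoepithelial cells were at 430, 55.5, 193, 75.4 and 164 CPM in replicates 1, 4, 5, 7 and 8. The groups overlapped, and 2 of 5 mice were higher in myoepithelial cells (log2 fold change 0.60 ± 0.517, edgeR adjusted p = 0.443). Hormone-sensing cells were at 12.03, 91.2 and 166 CPM, overlapping tumor cells and lower in 5 of 7 mice (log2 fold change -0.93 ± 0.359, edgeR adjusted p = 0.0491). That call passed in 8 of 21 other settings, all 21 with a negative fold change; it was lost without any single replicate except replicate 1 (-0.48 without replicate 4, edgeR adjusted p = 0.392), and it passed in neither title series alone (CB -0.94, edgeR adjusted p = 0.302; WT -0.94, edgeR adjusted p = 0.232). The acute-phase cluster was at 84.4, 200.02 and 478 CPM, overlapping the tumor class. Fibroblasts held 1.68 CPM and macrophages 4.95 CPM on average, below the low barcodes in every mouse. Among the 3 tumor clusters the mean Krt14 level was 214, 48.4 and 166 CPM and that of Krt17 was 124, 27.0 and 82.8 CPM in the same order, so the cluster lowest in one was lowest in the other.

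Krt17, a basal keratin of stress and wound repair (chr11:100256217-100261029, minus strand), was present in both tumor and myoepithelial cells. Tumor cells held 26.5, 74.6 and 133 CPM (lowest, median and highest of 7 mice) and hormone-sensing cells 0, 5.92 and 11.8 CPM, without overlap (log2 fold change -3.38 ± 0.467, edgeR adjusted p = 3.03e-07; CB -3.18, WT -4.56). Myoepithelial cells were at 494, 23.8, 257, 0 and 308 CPM in replicates 1, 4, 5, 7 and 8. Thus 3 mice were above the tumor range, and replicates 4 and 7 were below it (log2 fold change 1.59 ± 0.451, edgeR adjusted p = 0.0076). This call was lost without replicate 1 (0.64, edgeR adjusted p = 0.33) or replicate 8 (1.51, edgeR adjusted p = 0.142) and within either title series (CB 2.23, edgeR adjusted p = 0.133; WT 1.04, edgeR adjusted p = 0.234). No Krt17 UMI was counted in macrophages. Against them the tumor level was at least 50.4-fold higher (33.7-fold without replicate 4) and the myoepithelial level at least 140-fold higher (89.3-fold without replicate 1).

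Krt15, a basal keratin also known from progenitor cells (chr11:100131758-100135928, minus strand), was higher in hormone-sensing than in tumor cells. Hormone-sensing cells held 11.8, 41.4 and 168 CPM (lowest, median and highest of 7 mice), against 0, 1.51 and 14.6 CPM in tumor cells. The ranges overlapped, and all 7 mice were higher in hormone-sensing cells, replicate 7 only slightly at 11.8 against 11.3 CPM (log2 fold change 3.30 ± 0.554, edgeR adjusted p = 3.49e-05), with 4.49 in CB and 1.75 (edgeR adjusted p = 0.152) in WT. Myoepithelial cells were at 0, 15.9, 161, 0 and 0 CPM in replicates 1, 4, 5, 7 and 8, so the level came almost wholly from replicate 5 and the test against tumor cells was not passed (log2 fold change 2.12, edgeR adjusted p = 0.148). Nor did hormone-sensing and myoepithelial cells differ by the test (log2 fold change 1.18 ± 0.853, edgeR adjusted p = 0.343), with 4 of 5 mice higher in hormone-sensing cells. No Krt15 UMI was counted in macrophages or T/NK cells, and the hormone-sensing level was at least 38.1-fold and 24.8-fold higher, respectively (24.9-fold and 16.0-fold without replicate 1).

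Taken as a share of the UMIs of all 9 keratins, the basal keratins Krt5, Krt14, Krt15 and Krt17 made up 1.99 to 6.86% in the tumor class (median 3.65%, 7 mice) and 0.232 to 1.64% in the hormone-sensing class (median 0.904%). In the hormone-sensing class this share held 139 UMIs of Krt14, 104 of Krt15, 16 of Krt17 and 6 of Krt5. The mean Krt15 level was 59.1 CPM there and 35.3 CPM in the myoepithelial class. In the myoepithelial class the share was 61.4, 17.2, 81.2, 2.82 and 53.7% in replicates 1, 4, 5, 7 and 8. The 3 mice with a share above 50% stood far from replicate 4 and from replicate 7, whose share was within the tumor range. The 9 keratins together reached 5211 ± 902 CPM in tumor cells, 17375 ± 2753 CPM in hormone-sensing cells and 1796 ± 859 CPM in myoepithelial cells (SD, n = 7, 7 and 5), against 2716 CPM in the low barcodes.

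**Figure D2:**
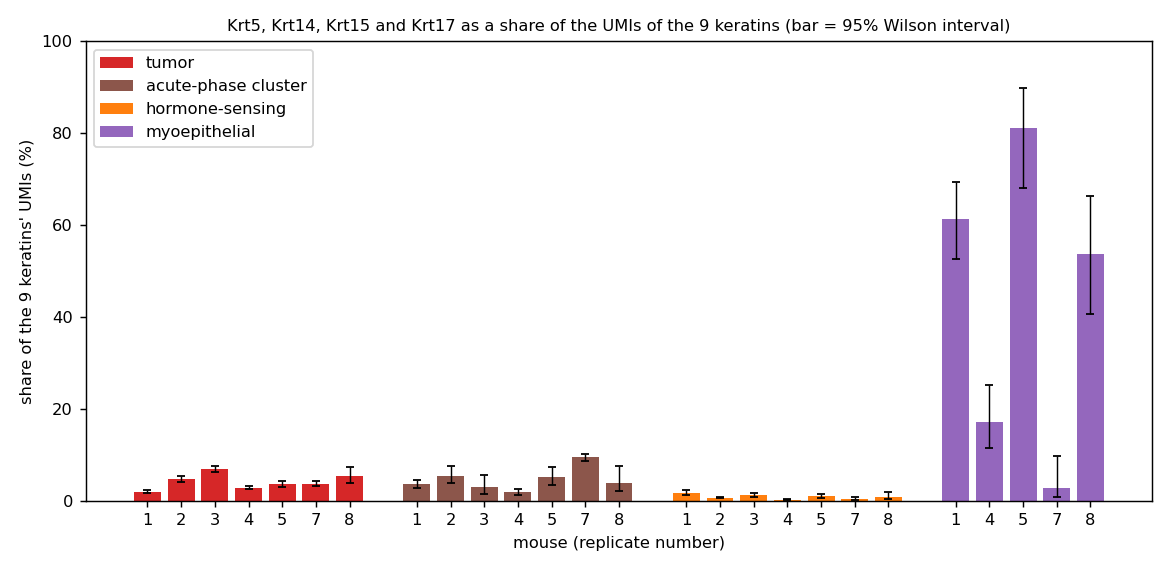
Share of the UMIs of the 9 keratins that came from Krt5, Krt14, Krt15 and Krt17, in percent, with 1 bar per mouse (replicate number on the horizontal axis) and its 95% Wilson interval, colored by class. Tumor mice lie between 1.99 and 6.86%, hormone-sensing mice between 0.232 and 1.64%, and myoepithelial mice between 2.82 and 81.2%.

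Vim (chr2:13573927-13582826, plus strand) was high in myoepithelial, fibroblast, endothelial and macrophage sums and lower in T/NK cells. In tumor and hormone-sensing cells it was at background as defined above. Fibroblasts held 2909, 3506 and 3899 CPM (lowest, median and highest of 7 mice), and endothelial cells 4023, 3145 and 3297 CPM in replicates 4, 5 and 8. Myoepithelial cells held 2020, 5542, 3117, 1848 and 3245 CPM in replicates 1, 4, 5, 7 and 8. The 3 classes overlapped, and no difference between fibroblast and myoepithelial cells passed the test (log2 fold change 0.47 ± 0.294, edgeR adjusted p = 0.319). Fibroblast markers in the myoepithelial class summed to 1411 to 4319 CPM against 44911 to 58777 CPM in the fibroblast class itself. Pericyte markers in the myoepithelial class summed to 37.7 to 1671 CPM, highest in replicate 5, and the part of either marker list in the Vim level was not tested. Macrophages were at 1147, 1648 and 2459 CPM, below fibroblasts in 7 of 7 mice without overlap (log2 fold change of fibroblasts over macrophages 0.93 ± 0.26, edgeR adjusted p = 0.00341). The test called no difference of macrophages from myoepithelial cells (log2 fold change of myoepithelial cells over macrophages 0.46 ± 0.297, edgeR adjusted p = 0.24). In CPM, however, macrophages were lower in each of replicates 1, 4, 5, 7 and 8, at 1147, 1179, 1648, 1194 and 1778 CPM. Nor did the test call a difference of macrophages from endothelial cells (log2 fold change of endothelial cells over macrophages 0.22 ± 0.36, edgeR adjusted p = 0.737), although the 3 endothelial sums lay above all macrophage sums in CPM. The median log2 fold change of all genes over macrophages was -0.16 for myoepithelial cells and -0.41 for endothelial cells. T/NK cells were at 504, 774 and 977 CPM, above the low barcodes in 6 of 7 mice and below macrophages in 7 of 7 mice (log2 fold change -1.43, edgeR adjusted p = 6.3e-05).

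Tumor cells held Vim at 26.4, 81.4 and 186 CPM and hormone-sensing cells at 0, 11.8 and 41.4 CPM (lowest, median and highest of 7 mice). The hormone-sensing level was lower in 6 of 7 mice with overlapping ranges (log2 fold change -2.11 ± 0.415, edgeR adjusted p = 0.000124; CB -2.04, WT -1.94). Both classes were below the 505 CPM of the low barcodes, in every mouse, and the part of free RNA in this difference was not tested. Against tumor cells the log2 fold change was 5.24 ± 0.332 for myoepithelial cells (edgeR adjusted p = 7.87e-15; CB 5.93, WT 4.58) and 5.71 ± 0.32 for fibroblasts (edgeR adjusted p = 3.5e-17). At least 1 Vim UMI was found in 5.36% of tumor cells (mean of 7 mice, median 639 UMIs per cell), 2.68% of hormone-sensing cells (median 873 UMIs), 72.5% of myoepithelial cells (652 UMIs) and 79.1% of fibroblasts (700 UMIs). With every cell reduced at random to 300 UMIs, and with 579, 146, 39 and 89 cells below that depth dropped, these shares became 2.12, 1.25, 50.9 and 56.0%.

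**Figure D3:**
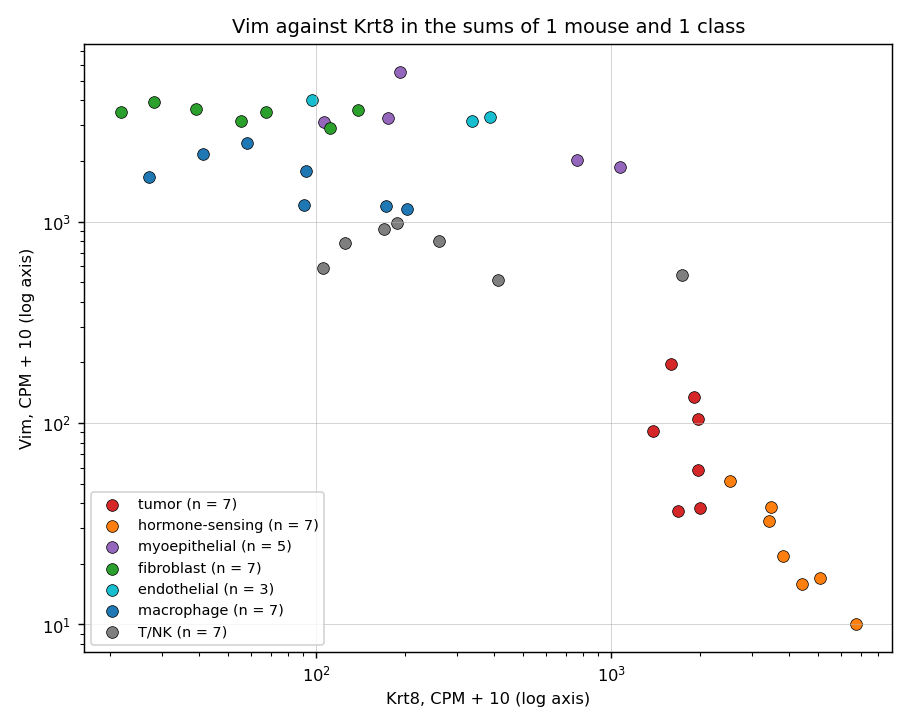
Vim against Krt8 as CPM + 10 (both axes logarithmic), 1 point for each sum of a mouse and cell class, colored by class. Tumor and hormone-sensing sums lie at high Krt8 and low Vim, and myoepithelial sums lie with the stromal and immune classes at high Vim.

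Counted over the 10 genes, 9 differed between hormone-sensing and tumor cells at an edgeR adjusted p under 0.05, 5 higher and 4 lower in hormone-sensing cells. Of all 6961 genes tested 30.1% differed, 14.0% higher and 16.0% lower. Between myoepithelial and tumor cells 7 differed, with Krt5, Krt17 and Vim higher and Krt8, Krt18, Krt19 and Krt7 lower in myoepithelial cells, against 25.3% of all genes (12.3% higher, 13.0% lower). Between hormone-sensing and myoepithelial cells 9 differed, 4 higher and 5 lower, against 27.5% of all genes (13.5% higher, 14.0% lower); Krt14 among the 5 passed in 8 of 21 other settings. Scaled by library size alone, 976 genes were higher and 659 lower in myoepithelial than in tumor cells, against 855 and 907 with TMM, the scaling used throughout.

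In each of the stromal and immune classes Vim was the only one of the 10 genes that was called higher than in tumor cells. Fibroblasts had 8 of 10 called, 7 of them lower, where 48.0% of all genes were called (23.3% higher, 24.6% lower). Macrophages had 9 called, 8 of them lower, where 50.9% were called (24.4% higher, 26.5% lower). In macrophages 8 were called without any 1 mouse, and the Krt15 call held in 6 of 15 other settings. T/NK cells had 7 called, 6 of them lower, where 49.1% were called (22.8% higher, 26.3% lower). Endothelial cells had 6 called, 5 of them lower, where 18.7% were called (8.29% higher, 10.4% lower); the number of the 10 genes called fell to 2 without replicate 4 and to 3 without replicate 5. With library size alone 749 of all genes were higher and 345 lower in endothelial cells (577 and 726 with TMM), and 1385 higher and 2804 lower in macrophages (1698 and 1843). Fibroblasts were lower than myoepithelial cells in 5 genes, Krt8, Krt23, Krt5, Krt14 and Krt17, and higher in none, where 19.6% of all genes were called (12.2% higher, 7.41% lower). The Krt8 call among these held in 14 of 21 other settings and was lost without replicate 1 or 7, and the log2 fold change, -2.14 with all mice, was -0.22 (edgeR adjusted p = 0.906) with each cell classed alone. Fibroblasts and macrophages differed in Vim alone, where 44.7% were called (21.7% higher, 23.0% lower). The median log2 fold change over all genes tested lay between -0.45 and -0.07 for the classes against tumor cells.

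**Figure D4:**
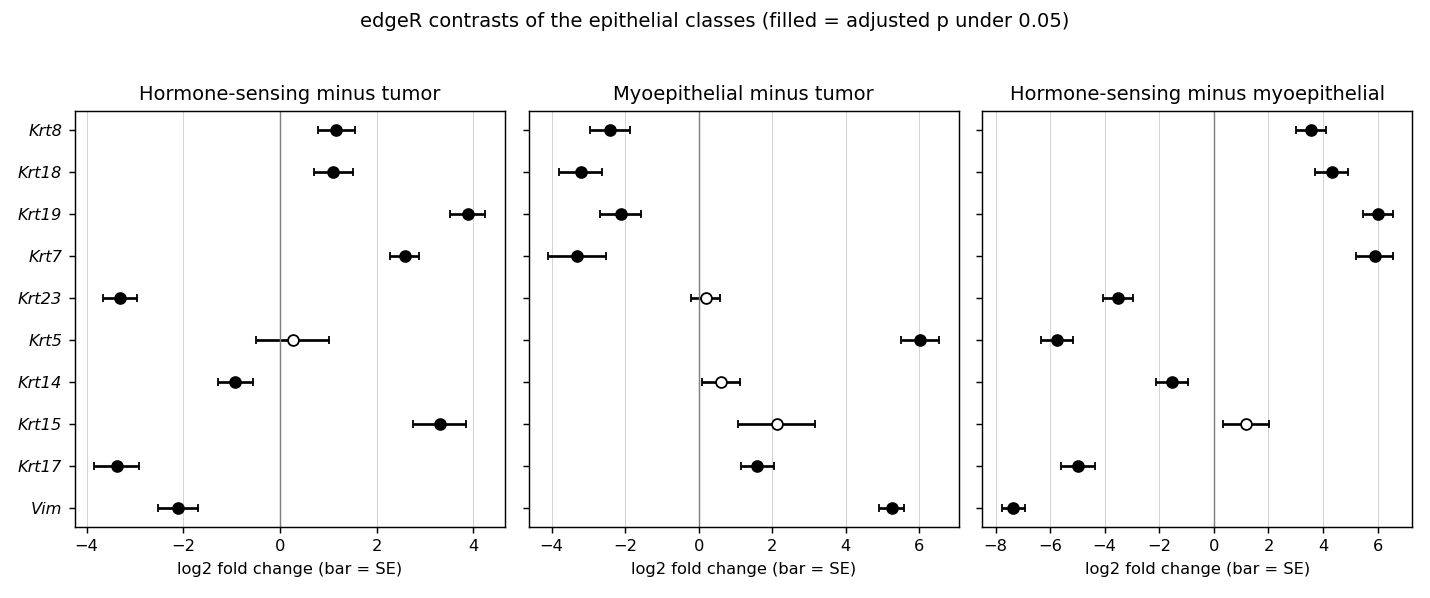
Log2 fold change with its standard error from edgeR for the 10 genes, for hormone-sensing against tumor, myoepithelial against tumor and hormone-sensing against myoepithelial cells; filled points passed an adjusted p of 0.05. Krt8, Krt18, Krt19 and Krt7 are above 0 in the first and below 0 in the second comparison, and Vim is the reverse; in the third, Krt18 lies at 4.31 and Vim at -7.35.

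Across the 43 sums of a mouse and class, on the scale of log2(CPM + 10), Krt8 was most like Epcam and Krt18 (Pearson r 0.946 for each), Cldn4, Spint2 and Cldn7. Krt14 was most like Mia (0.839), Apoc1, Perp, Kctd1 and Nrbp2, and Vim was most like Emp3 (0.876), Maf, Lgals1, Cd47 and Ccnd2. Among the 10 genes, Vim ran against Krt8 (-0.871) and Krt18 (-0.889), Krt17 ran with Krt23 (0.81), Krt14 (0.726) and Krt5 (0.691), and Krt5 ran less closely with its partner Krt14 (0.497). These values are descriptions over sums that share mice, depth and class, with no test.

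Co-detection in single cells was then examined in the 4275 cells with at least 1 PYMT UMI, in any class, to ask whether the basal keratin and vimentin occur in the same oncogene-positive cell more often than by chance. The number of cells with both transcripts was set against the number expected if the genes were independent within each mouse and within each of 10 equal bins of total UMIs. Krt14 and Vim were found together in 46 cells where 42.3 were expected. The counts in replicates 1, 2, 3, 4, 5, 7 and 8 were 4, 3, 13, 5, 2, 17 and 2, against 2.59, 2.55, 8.95, 4.47, 2.13, 16.6 and 5 expected. The observed number was above the expected in 5 of 7 mice (mean log2 ratio 0.03 ± 0.564 SD, exact two-sided sign-flip permutation test p = 0.875), and no excess was detectable at this depth. The mean log2 ratio was 0.35 in CB (4 of 4 mice above), -0.39 in WT (1 of 3) and 0.23 without replicate 8 (5 of 6 mice above, exact permutation p = 0.0938). These 46 cells had a median of 5085 UMIs against 986 in all PYMT-positive cells, and 41.3% of them were mixed cells as defined above, against 17.1%. By class, 26 of them were tumor, 14 acute-phase and 4 myoepithelial cells.

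Krt8 and Vim were found together less often than expected: 179 PYMT-positive cells held both where 247 were expected, with fewer than expected in 7 of 7 mice, among which replicate 3 was nearly at the expected number with 25 cells against 25.1 (mean log2 ratio -0.42 ± 0.281 SD, exact two-sided sign-flip permutation test p = 0.0156, the smallest that 7 mice allow, and 0.0312 adjusted over 4 pairs). Krt8 and Krt18 were found together in 2232 cells where 2068 were expected, above it in 7 of 7 mice (mean log2 ratio 0.14, exact permutation p = 0.0156, adjusted 0.0312). Krt8 and Krt14 were found in 306 cells where 295 were expected (mean log2 ratio 0.06, exact permutation p = 0.141, adjusted 0.188). Within the tumor class 97 cells held both Krt8 and Vim and 101 were expected, with 2 of 7 mice above it (mean log2 ratio -0.06, exact permutation p = 0.406). PYMT UMIs were also counted in cells of other classes. Of the 361 cells with PYMT and Vim, 36.3% were tumor, 14.1% myoepithelial, 11.4% macrophage and 8.86% fibroblast. In the myoepithelial class PYMT was at 236, 301, 546, 1056 and 3224 CPM in replicates 1, 4, 5, 7 and 8. In replicate 8 the tumor class held 3104 CPM and the low barcodes 726 CPM. The source of PYMT in these other classes was not tested. Within the tumor class Krt14 and Vim were found together in 26 cells where 16.8 were expected, above it in 6 of 7 mice (mean log2 ratio 0.57 ± 0.414 SD, exact permutation p = 0.0312, adjusted 0.0625 over 4 pairs). The counts in replicates 1, 2, 3, 4, 5, 7 and 8 were 3, 3, 13, 3, 1, 2 and 1. The expected numbers were 1.02, 1.73, 9.70, 1.57, 1.11, 0.963 and 0.7. In the tumor class replicate 3 thus gave 13 of the 26 cells, and each other mouse gave 1 to 3. Krt8 and Krt18 were above the expected number in 7 of 7 mice there too (1352 cells against 1289 expected, exact permutation p = 0.0156, adjusted 0.0625).

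**Figure D5:**
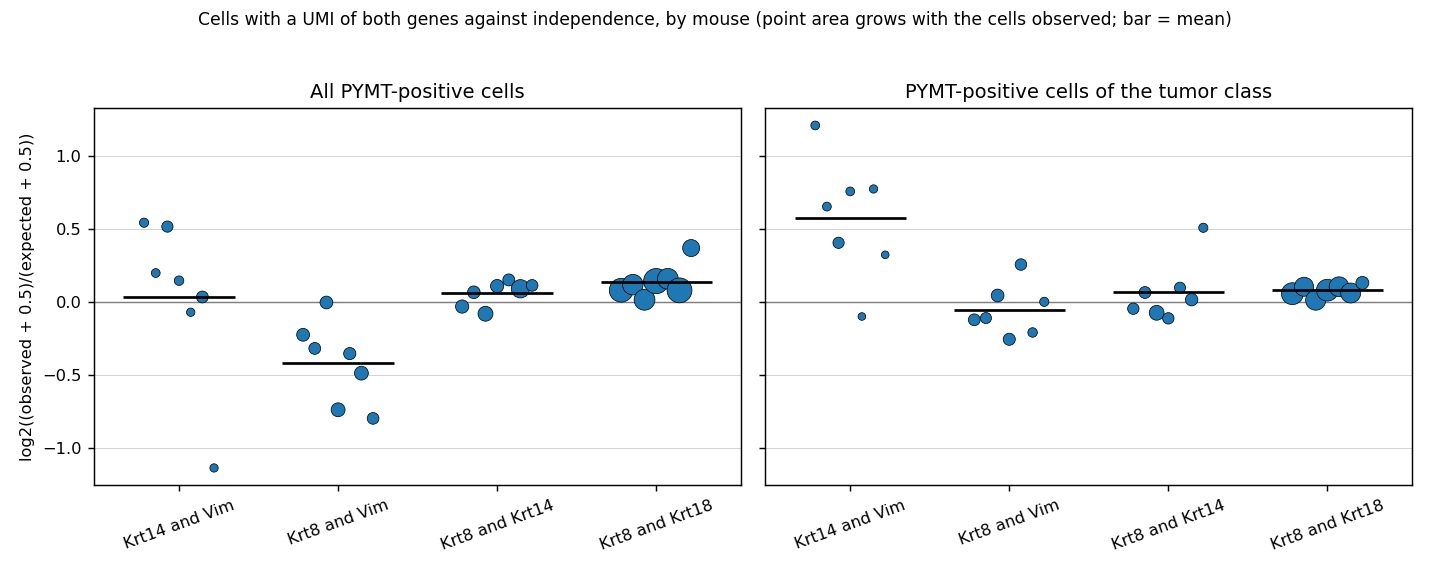
Log2 ratio of observed to expected cells with both transcripts (0.5 added to each) for 4 gene pairs, in all PYMT-positive cells (left) and in those of the tumor class (right). Each point is 1 mouse, its area grows with the number of cells observed, and the bar is the mean; Krt8 with Vim lies at or below 0 and Krt8 with Krt18 above 0 in all 7 mice on the left, while Krt14 with Vim lies on both sides.

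The deepest of the 10 bins spanned 2831 to 27127 UMIs over the mice, so depth still varied within a bin. With cells reduced to 300 UMIs, no cell with PYMT held both Krt14 and Vim, where 1.72 were expected. Of the 377 cells with PYMT and Krt14, 45.9% were tumor and 43.5% acute-phase cells, with a median of 2218 UMIs. Replicate 7 gave 160 of the 377 cells, 30 of them in the tumor class. The same mouse gave 538 of the 689 Krt14 UMIs of the acute-phase cluster. Krt14 was found in 8.74% of tumor cells (mean of 7 mice), 12.4% of acute-phase cells and 11.4% of myoepithelial cells, and in 0.397% of macrophages, which should lack it, at median depths of 639, 929, 652 and 544 UMIs. At 300 UMIs per cell these shares became 3.04, 4.81, 4.55 and 0.276%.

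Other keratins and their linkers were counted from lists of the same pathway. Of 4 further type II keratins that could be tested, 3 were higher in hormone-sensing than in tumor cells, where 14.0% of all genes tested were called higher. Krt6a was at 172, 231 and 579 CPM there (lowest, median and highest of 7 mice) against a mean of 18.8 CPM in tumor cells (log2 fold change 4.48), Krt4 was at a mean of 68.0 CPM (log2 fold change 4.92) and Krt79 at 71.3 CPM (log2 fold change 1.59). Among 10 linker genes, which tie filaments to junctions and to each other, 6 were higher in hormone-sensing cells, namely Plec, Dst, Dsp, Ppl, Jup and Pof1b. In myoepithelial cells 3 of 10 linkers were higher than in tumor cells (Dst, Dsp and Macf1) and 1 was lower (Pkp2), where 12.3% of all genes were called higher and 13.0% lower. Of 4 other filament genes, Nes (nestin) and Synm (synemin) were higher in myoepithelial than in tumor cells, with Nes at 278 ± 121 CPM (SD, n = 5; log2 fold change 2.64).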

How the data were processed

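The deposited files were Drop-seq matrices of UMI counts per gene and cell barcode, made by the authors with 1 matrix for each of 7 mice. The study's methods name mm10 with the PyMT sequence, whereas the submitters' processing notes list STAR, FastQC, hg19 and GRCh37.p13; the gene symbols are those of mouse. Mitochondrial genes, listed in 2 of 7 matrices, were dropped. Barcodes with 200 to 6000 genes were kept and clustered with Seurat 5.3.0 (20 principal components, resolution 0.6), leaving filament genes out. A cluster was named by a rule set after the clusters were seen: a marker list with a mean log2 fold of at least 1, at least 3 markers each in at least 10% of cells, and no other list with more markers among the 10 leading genes. No doublet caller was run. Cells with at least 2 marker UMIs in each of 2 or more compartments (epithelial, immune, stromal) were left out in an alternative. Counts were summed per mouse and class (at least 10 cells), giving 43 sums. One edgeR 4.0.16 quasi-likelihood fit (TMM scaling, class and mouse as terms) tested 6961 genes, with Benjamini-Hochberg adjustment over all of them. Sums with the same replicate number come from the same mouse, so the mouse is the block. On simulated counts for hormone-sensing against tumor cells, 151 of 173 changed genes were called, and 4 unchanged ones, among 5852 genes tested. The median absolute log2 fold change of the changed genes was 1.92, and the simulation covered this contrast only. Cells with both transcripts of a pair were compared with the number expected within mouse and 10 bins of UMIs, and the log2 ratio (0.5 added) was tested by an exact two-sided sign-flip permutation over mice, adjusted over 4 pairs. Levels are CPM of all UMIs of a sum; intervals and floors cover counting error only. The genes compared with each member in likeness were the 5 with the highest Pearson r. Gene positions are from GENCODE M21. The 10 genes, the lists and the tests were chosen with earlier results of these data known.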

Additional observations from a re-analysis of the deposited data

Results flagged for a closer look

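In 32 groups of mice, the highest or lowest sum was compared with its nearest neighbor by Dixon's ratio, which chance passes in about 1 of 20 groups, and 6 stood apart. In the T/NK class, replicate 3 stood above the other 6 mice for 4 luminal keratins: Krt8 was at 1728 CPM with the next mouse at 401, Krt18 at 3091 CPM with the next at 432, Krt19 at 1330 CPM with the next at 394, and Krt7 at 465 CPM with the next at 88.8. That sum held 40 cells and had the highest tumor markers of the T/NK class, at 17483 CPM; the part of these markers in the keratin levels was not tested. Without replicate 3, T/NK cells were lower than tumor cells in Krt19 (log2 fold change -1.17, edgeR adjusted p = 0.00411), whereas with it the difference was not called (-0.72, edgeR adjusted p = 0.124). In the myoepithelial class, replicate 7 stood apart for Krt18, at 1320 CPM with the next mouse at 226. In the macrophage class, replicate 4 stood apart for Krt19, at 191 CPM with the next mouse at 70.2.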

How the results depend on the processing

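The mouse entered the fit as a block because sums with the same replicate number are parts of the same tumor. Without that replicate block, the numbers of the 10 genes called were 6 for hormone-sensing against tumor cells (9 with it), 6 for myoepithelial against tumor (7), 8 for hormone-sensing against myoepithelial (9) and 7 for endothelial against tumor (6). With the CB series alone, where 2 mice had myoepithelial and 1 had endothelial sums, the numbers fell to 3 for myoepithelial against tumor, 1 for endothelial against tumor and 3 for fibroblast against myoepithelial cells. For fibroblasts against macrophages, where Vim alone was called, the number was 5 with 9 principal components, 3 with at least 500 genes per cell and 2 with mixed cells left out. With 9 principal components Krt19 turned from 0.0024 to -1.48 there (edgeR adjusted p = 0.00551), and no endothelial class was found. Leaving out 1 mouse at a time gave 2 to 8 genes for endothelial against tumor, with 2 without replicate 4 and 3 without replicate 5, and 6 to 8 for each of the hormone-sensing and myoepithelial classes against tumor. Scaling by library size alone moved the median log2 fold change of all genes against tumor cells from -0.45 to -0.12 for endothelial cells and from -0.10 to -0.37 for macrophages, and reversed no called gene among the 10. The cause of these shifts was not tested.

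For Krt8 with Vim in the same cell, the mean log2 ratio was -0.24 with at least 2 PYMT UMIs, -0.0574 in the tumor class, -0.22 without bins of depth, -0.96 at 300 UMIs per cell, -0.32 in CB and -0.55 in WT, none past an adjusted p of 0.05. For Krt8 with Krt18 it was 0.0792 with at least 2 PYMT UMIs, 0.0778 in the tumor class, 0.27 at 300 UMIs, 0.0881 in CB and 0.20 in WT, likewise not past it. Without 1 mouse the ranges were -0.49 to -0.36 and 0.10 to 0.16; 6 mice allow no adjusted p under 0.0625 where 2 pairs reach the smallest exact permutation p, and 4 or 3 mice none under 0.125 before adjustment. Krt8 with Krt14 passed only without bins of depth (0.37, adjusted exact permutation p = 0.0312). Of 1810 fold changes under other settings, 1690 stayed on their side of the threshold, 49 of them uncalled values that changed sign, 88 were no longer called, 31 were called only then and 1 was called with the other sign. Placing the acute-phase and hemoglobin-high clusters in the tumor class was chosen after seeing the data. Depth limits the rare classes: in the myoepithelial class Krt5 rests on 69 UMIs, Krt14 on 43 and Krt23 on 26.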

Other observations

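Krt83, a type II keratin of hair, had its highest mean level of the 7 classes in T/NK cells; it was chosen after its values were seen. It was at 0, 64.5 and 178 CPM in the T/NK class (lowest, median and highest of 7 mice), above 0 in 6 of 7 mice, against a mean of 0.969 CPM in tumor cells (log2 fold change 5.12 ± 0.561, edgeR adjusted p = 5.5e-11). No UMI of it was counted in myoepithelial, fibroblast, endothelial or macrophage sums, and barcodes with fewer than 200 genes held 13.99 CPM. Within the T/NK class, 1 cluster led by Il17a, Cd163l1, Icos and Trdc, genes known from gamma delta T cells that make interleukin 17, held 63 Krt83 UMIs in 46 of 305 cells, at 360 ± 295 CPM (SD, n = 6 mice). The larger T/NK clusters held 13 UMIs in 11 of 1019 cells and none in 889 cells.

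Vim also differed among the clusters inside a class, as levels with no test. The macrophage clusters stood at 1282 and 2442 CPM on average, and the T/NK clusters at 748, 358 and 1443 CPM, the last being the cluster led by Il17a. Lmnb1, which encodes a nuclear lamin, was at 106 CPM in macrophages, with a log2 fold change of 2.33 against tumor cells.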
